A study of Homo sapiens with 12 samples.

Results

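The integrated stress response regulators described here were 10 genes taken by symbol from the 60607 gene IDs of the count table: ATF4, ATF3, ATF5, DDIT3, DDIT4, TRIB3, CHAC1, PPP1R15A, CEBPB and CEBPG. Each symbol matched 1 gene ID, and all 10 were among the 17320 genes that passed the filter on low counts. The series measured messenger RNA in 12 libraries of wild-type AC16, a human cell line of adult ventricular origin that was obtained by fusion with a transformed fibroblast line. Libraries fell into 4 groups of 3: untreated cells in DMEM, and cells given 0.1 µM doxorubicin (an anthracycline cancer drug that poisons topoisomerase II and damages the heart) for 2, 4 or 6 days. Titles give the exposures as 48, 96 and 112 hours, although the design calls the last of them 6 days, and they place every library at day 6. The labels do not say whether a shorter exposure ended at harvest, so day 2, day 4 and day 6 name lengths of exposure. Words such as later, then or stayed compare separate libraries by length of exposure. The groups share 1 cell line, and the labels do not state whether replicate libraries are separate cultures. The p-values therefore rest on differences among these 12 libraries alone and may reflect technical spread.

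Cells under stress switch on kinases that phosphorylate the translation factor eIF2, which slows protein synthesis while it favours translation of a few messages with short upstream reading frames, ATF4 and ATF5 among them. ATF4 protein pairs with C/EBP factors and turns on genes of amino acid supply together with a second tier of regulators, and PPP1R15A closes the loop by restoring eIF2. In heart cells the response has been studied under hypoxia, protein misfolding and mitochondrial failure. The messenger RNA level of ATF4 or ATF5 does not report how much protein is made.

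Total counts were 14835743 to 21226441 per library, and the share of counts on the mitochondrial genome was 5.51% to 8.34%. Control replicate 2 (8.26%, against 6.01% and 6.75%) and day 2 replicate 3 (5.51%, against 7.62% and 7.74%) stood apart from their groups in that share. The cell type label is cardiomyocytes, but of 12 cardiomyocyte markers only 4 passed the filter, MYL2 had 0 counts in all 12 libraries, and MYH6 and MYH7 had at most 4 counts in a group. Their summed level was 9.19 to 15.3 CPM (a gene's reads scaled to a common library size, with edgeR's TMM factors) in the control, 11.9 to 15.9 at day 2, 12.4 to 17.3 at day 4 and 17.5 to 20.6 at day 6, most of it TTN. The 12 fibroblast markers were all measured and summed to 7950 to 8660 CPM in the control, 12200 to 12600 at day 2, 10400 to 10900 at day 4 and 8900 to 9320 at day 6. COL1A1 and VIM were the highest of these markers in each group, and single markers moved in both directions. Means follow in the order control, day 2, day 4 and day 6. COL1A1 averaged 2580, 4530, 2790 and 2130 CPM, and VIM 2130, 3190, 4710 and 4030 CPM. POSTN averaged 138, 462, 260 and 187 CPM, and COL3A1 928, 1190, 510 and 525 CPM. LUM averaged 213, 153, 66.6 and 58.8 CPM. The part of these shifts in the results was not tested. In bulk RNA, fewer cells of a type and less RNA per cell cannot be told apart.

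Across the course 9 of the 10 regulators differed between groups, where 63.4% of all tested genes did (edgeR quasi-likelihood test, called where the p adjusted by Benjamini-Hochberg across the 17320 genes was under 0.05). Most of them fell. After 2 days of doxorubicin 6 fell, 3 rose and 1 did not pass the test, where 23.4% of tested genes fell and 23.8% rose (47.2% in all). After 4 days 8 fell and 1 rose, beside 17.7% and 18.8% of all genes (36.5% in all), and after 6 days again 8 fell and 1 rose, beside 21.7% and 22.0% (43.7% in all). The median log2 fold change of the 10 was -0.50 at day 2, -0.88 at day 4 and -0.998 at day 6. That of all tested genes was -0.013, -0.003 and -0.006, which TMM scaling holds near 0 by design. With scaling by library totals the median of all tested genes was -0.136, -0.039 and 0.03. Without the pair of libraries that stood apart in mitochondrial share, 8, 8 and 10 of the regulators differed from the control.

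The regulators are described here in 5 courses. TRIB3, CHAC1, ATF4, CEBPG and DDIT4 fell by day 2 and stayed below the control. All of these but DDIT4 were lower again at day 4 than at day 2. DDIT3 fell little by day 2 and much further by day 4. ATF3 and PPP1R15A rose at day 2 and lay below the control at day 4 and day 6. ATF5 rose. CEBPB did not change past the threshold.

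**Figure D1:**
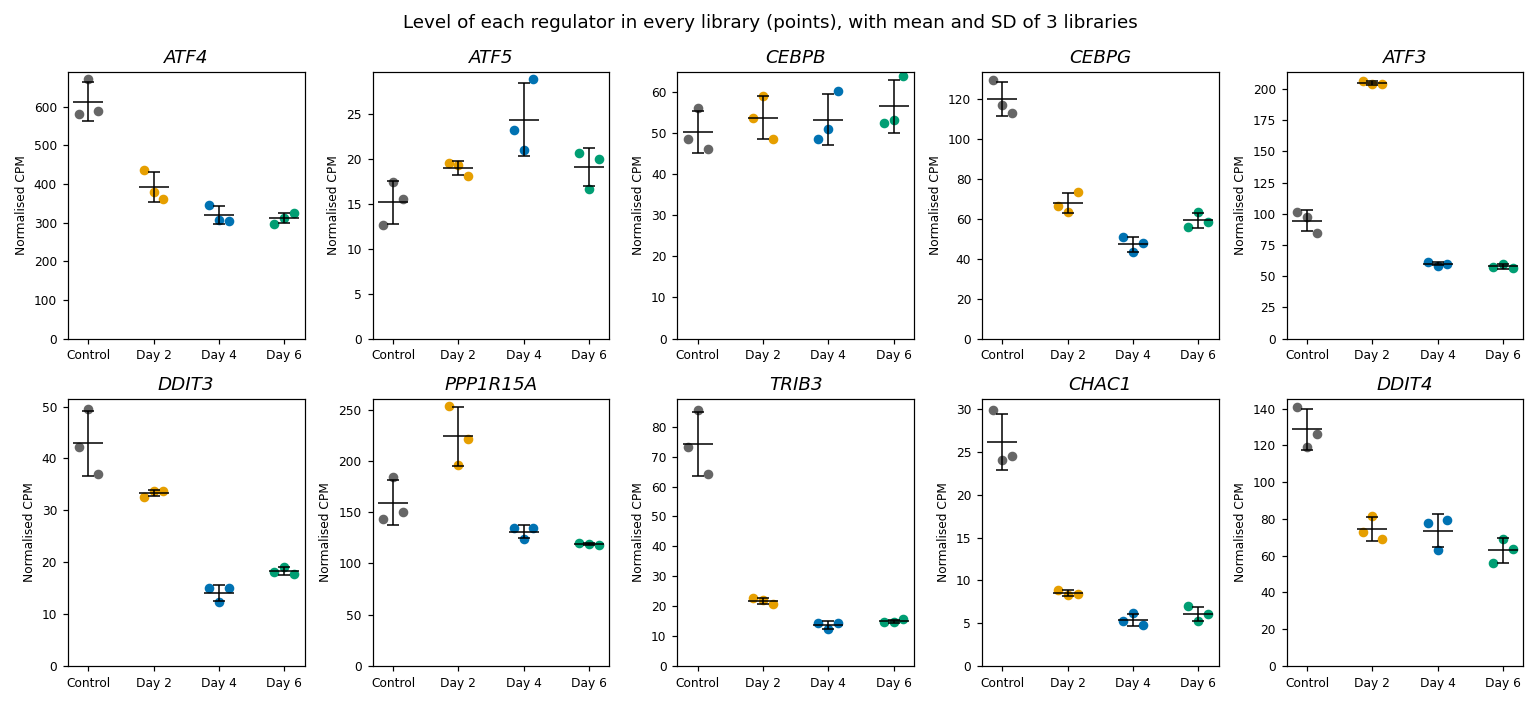
Normalised CPM of each regulator (vertical axes, each from 0) in the control and after 2, 4 and 6 days of doxorubicin (horizontal axes). Points are the 3 libraries of a group, and the bar and whiskers are their mean and SD. ATF3 sits at 204 to 206 CPM in all 3 day 2 libraries and at 56.5 to 61.5 CPM in the 6 later ones, while TRIB3 is at 22.6 CPM or less in every treated library and at 64.1 CPM or more in the control.

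Short stretches of promoter are shown for the regulators whose start regions held the letters that ATF4 complexes or related factors are known to read. RefSeq promoter windows (GRCh38.p14, 250 bases before to 50 after a start) were found for all 10 genes, 19 windows in all. The composite C/EBP-ATF element was searched as TGATGNAA on both strands, and the cAMP response element as TGACGTCA, which is its own reverse complement. These motifs do not overlap each other in the stretches printed, which run 5′ to 3′ on the plus strand, the strand of each gene, with the match in capitals.
CHAC1: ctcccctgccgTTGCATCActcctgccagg
CEBPG: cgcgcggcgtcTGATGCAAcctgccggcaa
ATF3: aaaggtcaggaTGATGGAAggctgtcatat
PPP1R15A: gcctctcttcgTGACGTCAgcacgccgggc

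The CHAC1 stretch lies at chr15:40953251-40953280, with the match beginning 209 bases before a RefSeq start, inside an exon of another annotated CHAC1 transcript (GENCODE release 29), and it holds the element in reverse orientation. The CEBPG stretch is at chr19:33374060-33374089, 42 bases before a start and in an intron of the longer transcript. The ATF3 stretch, at chr1:212565205-212565234, lies upstream of the gene, 191 bases before a RefSeq start. The composite element was thus present in 3 of the 10 regulators, and in 4.46% of the 27305 genes with a window (3.62% of 35116 windows). The cAMP response element was at chr19:48872352-48872381, 58 bases before the start of PPP1R15A, in 1 of the 10, against 2.25% of all genes (1.85% of windows). The 10 regulators had 19 windows and the 27305 genes had 35116, so the regulators had more windows per gene in which to match. A match is a description of letters, and its absence from the windows of the other regulators says nothing of sites elsewhere. Among the 3 genes with the composite element, CHAC1 and CEBPG fell at every exposure and ATF3 rose at day 2 and fell later.

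ATF4, the transcription factor at the centre of the response, is a gene of chromosome 22 (GRCh38, 39519695 to 39522685, plus strand, ENSG00000128272.16). In the control libraries it stood at 579.7, 670.8 and 587.8 CPM. At day 2 it had 435.8, 377.8 and 361.4 CPM, at day 4 346.5, 305.7 and 304.8 CPM, and at day 6 297.3, 312.3 and 323.5 CPM. Every treated library lay below every control, and the day 4 and day 6 libraries overlapped each other and lay below those of day 2. The log2 fold change against the control was -0.65 ± 0.084 (SE) at day 2, -0.94 ± 0.085 at day 4 and -0.98 ± 0.085 at day 6 (edgeR, adjusted p = 7.66e-07, 2.89e-09 and 1.04e-09). The fall to day 4 from day 2 was -0.30 ± 0.084 (adjusted p = 0.00787, but 0.0681 without day 2 replicate 1 and 0.0554 with scaling by library totals). Day 6 and day 4 did not differ past the threshold (-0.04, 95% interval -0.21 to 0.14). The 4 annotated ATF4 pseudogenes held 238 counts over the 12 libraries, against 83882 for ATF4, so few reads were counted for a copy.

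CEBPG encodes a short C/EBP factor that lacks an activation domain and pairs with ATF4 (chromosome 19, 33373330 to 33382686). It had 129.2, 117.1 and 112.8 CPM in the control, 66.5, 63.3 and 73.4 CPM at day 2, 50.6, 43.2 and 47.9 CPM at day 4, and 55.8, 63.3 and 58.2 CPM at day 6. All 9 treated libraries were far below the controls, with the lowest values at day 4. CEBPG fell by 0.82 ± 0.087 at day 2, by 1.34 ± 0.089 at day 4 and by 1.02 ± 0.087 at day 6 on the log2 scale (adjusted p = 2.63e-08, 9.73e-12 and 8.31e-10). It was 1.25-fold higher at day 6 than at day 4, and these groups did not overlap (adjusted p = 0.0273). That call was lost without day 4 replicate 2 (adjusted p = 0.119) or 3 (0.0705) and without day 6 replicate 2 (0.156) or 3 (0.0591).

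CEBPB, a C/EBP activator of inflammatory and metabolic genes that can also pair with ATF4 (chromosome 20, 50190734 to 50192689), kept the flattest course of the 10. Its values were 48.4, 56.0 and 46.2 CPM in the control, 53.6, 59.0 and 48.5 CPM at day 2, 48.6, 50.9 and 60.2 CPM at day 4, and 52.5, 53.0 and 63.9 CPM at day 6. Every group overlapped every other. The 95% intervals of the log2 fold change were -0.12 to 0.31 at day 2, -0.13 to 0.30 at day 4 and -0.04 to 0.39 at day 6 (edgeR, adjusted p = 0.473, 0.571 and 0.195). Without control replicate 2 the day 6 value was 0.26 and passed the test (adjusted p = 0.0487). The opposite-strand gene CEBPB-AS1 overlaps CEBPB and averaged 0.534 ± 0.234 CPM at day 6 and 3.26 ± 0.632 CPM in the control (SD, n = 3), where CEBPB itself averaged 56.5 CPM at day 6 and 50.2 CPM in the control.

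ATF5 encodes a bZIP factor whose translation, like that of ATF4, is favoured under stress and which acts in the mitochondrial stress response (chromosome 19, 49928702 to 49933935). Its values were 12.6, 17.3 and 15.5 CPM in the control, 19.6, 19.2 and 18.0 CPM at day 2, 23.1, 21.0 and 28.8 CPM at day 4, and 20.7, 16.6 and 19.9 CPM at day 6. The day 2 and day 4 libraries lay above all controls, and 1 day 6 library lay within the control range. ATF5 was 1.61-fold higher at day 4 than in the control (log2 0.69 ± 0.13, adjusted p = 0.000176). At day 2 and day 6 the changes of 0.33 ± 0.13 and 0.34 ± 0.13 were close to the threshold (adjusted p = 0.0455 and 0.0418).

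The day 2 call of ATF5 ended with scaling by library totals (log2 0.205, adjusted p = 0.217), without control replicate 1 (0.257) or 3 (0.0755), without day 2 replicate 1, 2 or 3 (0.102, 0.0823 and 0.0538), and without day 4 replicate 1 (0.0543) or day 6 replicate 1 (0.0519). The day 6 call ended without control replicate 1 (adjusted p = 0.239) or 3 (0.0725), day 4 replicate 1 (0.0507) and day 6 replicate 1 (0.151) or 3 (0.117). The higher level of ATF5 at day 4 than at day 2 (0.36 ± 0.13, adjusted p = 0.0302) was not past the threshold without day 2 replicate 1, 2 or 3 (0.0596, 0.0681 and 0.0976) or day 4 replicate 3 (0.208). ATF5 overlaps exons of NUP62 and IL4I1 on the opposite strand, and the strand setting of the counting is not given in the sources used here. NUP62 averaged 88.5, 89.9 and 82.6 CPM after 2, 4 and 6 days and 105.5 CPM in the control, a log2 fold change of -0.25, -0.23 and -0.35 (edgeR, adjusted p = 0.0244, 0.05 and 0.00285). IL4I1 averaged 0.594, 0.709 and 1.08 CPM after 2, 4 and 6 days and 0.330 CPM in the control. Its log2 fold change was 0.81, 1.07 and 1.69 (edgeR, adjusted p = 0.163, 0.0698 and 0.00226), past the threshold at day 6 and in the direction of ATF5. Over the 12 libraries IL4I1 had 145 counts and NUP62 18952, against 4047 for ATF5. How far reads were shared between these genes was not tested.

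ATF3 encodes a bZIP factor induced by many stresses, DNA damage and p53 among them, that often represses its targets (chromosome 1, 212565334 to 212620777). It had 101.5, 97.4 and 85.0 CPM in the control and 206.3, 203.7 and 203.8 CPM at day 2, and then 61.5, 58.6 and 60.1 CPM at day 4 and 57.3, 59.9 and 56.5 CPM at day 6. The day 2 libraries were above every control and the later ones below every control. ATF3 rose 2.16-fold at day 2 (log2 1.11 ± 0.078, adjusted p = 1.62e-11). It fell by 0.66 ± 0.079 at day 4 and by 0.71 ± 0.079 at day 6 on the log2 scale against the control (adjusted p = 3.47e-07 and 7.07e-08). From day 2, its level was 3.41-fold lower at day 4 (adjusted p = 3.09e-14), place 204 among the falls of all 17320 genes between these exposures. Day 6 and day 4 did not differ past the threshold (log2 -0.05, 95% interval -0.22 to 0.11, adjusted p = 0.761).

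PPP1R15A encodes GADD34, the stress-induced subunit that brings protein phosphatase 1 to eIF2 and so ends the block on translation (chromosome 19, 48872392 to 48876057). It had 143.3, 184.5 and 149.9 CPM in the control, 253.6, 196.4 and 221.8 CPM at day 2, 134.3, 124.1 and 134.8 CPM at day 4, and 119.5, 119.1 and 117.7 CPM at day 6. As with ATF3, the day 2 libraries lay above all controls and the later ones below all controls. PPP1R15A rose 1.41-fold at day 2 (log2 0.49 ± 0.094, adjusted p = 0.000118) and fell by 0.42 ± 0.095 at day 6 (adjusted p = 0.000767). The fall of 0.28 ± 0.094 at day 4 (adjusted p = 0.0218) was not past the threshold without control replicate 2 (0.149), without day 4 replicate 2 (0.092) or without the pair of libraries of apart mitochondrial share (0.133). Directly compared, day 4 was 1.71-fold lower and day 6 1.89-fold lower than day 2 (adjusted p = 5.49e-07 and 3.32e-08).

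DDIT3 encodes CHOP, a C/EBP-family partner that promotes death under lasting stress of the endoplasmic reticulum (chromosome 12, 57516588 to 57521737, minus strand). Its values were 42.2, 49.6 and 37.1 CPM in the control, 32.6, 33.8 and 33.7 CPM at day 2, 14.93, 12.3 and 14.99 CPM at day 4, and 18.1, 19.1 and 17.6 CPM at day 6. Every treated library was below every control, with only a small gap at day 2. DDIT3 fell by 0.36 ± 0.10 at day 2 (adjusted p = 0.00573, and 0.0692 without the pair of libraries of apart mitochondrial share). At day 4 it was 3.05-fold lower than in the control, place 197 among all falls, and at day 6 2.35-fold lower (adjusted p = 2.37e-11 and 1.25e-09). Day 4 was 2.37-fold lower than day 2 (adjusted p = 4.72e-09), the second-largest drop of a regulator between these exposures after that of ATF3.

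The level of DDIT3 at day 6 was 1.30-fold that at day 4 (log2 0.37 ± 0.11, adjusted p = 0.0489), and the libraries did not overlap. This call was at the edge of the threshold. It ended without control replicate 1 (adjusted p = 0.0538), without day 2 replicate 1, 2 or 3 (0.057, 0.0565 and 0.0577), without day 4 replicate 1, 2 or 3 (0.0893, 0.184 and 0.0719) and without day 6 replicate 1, 2 or 3 (0.116, 0.169 and 0.0778). The ends of DDIT3 overlap MARS1 and MBD6 on the opposite strand. MARS1, the methionine-tRNA synthetase gene, averaged 158.7, 122.2 and 134.0 CPM after 2, 4 and 6 days and 229.4 CPM in the control, a log2 fold change of -0.53, -0.91 and -0.78. MBD6 changed by -0.36, -0.64 and -0.60. The microRNA gene MIR616, inside DDIT3 on the same strand, averaged 1.05, 0.771 and 1.31 CPM after 2, 4 and 6 days and 3.65 CPM in the control, a log2 fold change of -1.77, -2.22 and -1.46. These 3 genes and DDIT3 were all lower after each exposure, and how far reads were shared between them was not tested.

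TRIB3 encodes a pseudokinase that is a target of ATF4 and CHOP and in turn binds ATF4 and dampens it (chromosome 20, 362835 to 397559). It had 73.2, 85.6 and 64.1 CPM in the control, 22.6, 22.1 and 20.7 CPM at day 2, 14.3, 12.3 and 14.5 CPM at day 4, and 14.62, 14.55 and 15.56 CPM at day 6. No treated library came near a control, and every day 4 and day 6 library was below every day 2 library. TRIB3 was 3.41-fold lower than the control at day 2, 5.43-fold at day 4 and 4.98-fold at day 6 (adjusted p = 7.59e-13, 6.88e-15 and 7.54e-15), the largest fall among the 10 regulators each time. Ranked among all tested genes it held place 199, 37 and 59 among the falls. A further fall of 0.67 ± 0.11 separated day 4 from day 2 (adjusted p = 4.58e-05). Day 6 and day 4 differed by 0.12 (95% interval -0.11 to 0.36), which was not past the threshold, although their libraries did not overlap.

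CHAC1 encodes a cyclotransferase that breaks down glutathione and is a target of ATF4 (chromosome 15, 40952962 to 40956519). Its values were 29.9, 24.0 and 24.5 CPM in the control, 8.87, 8.28 and 8.35 CPM at day 2, 5.20, 6.12 and 4.78 CPM at day 4, and 6.95, 5.29 and 6.07 CPM at day 6. The course was that of TRIB3, with all treated libraries below all controls and a second step down between day 2 and day 4. Against the control CHAC1 fell by 1.62 ± 0.13, 2.29 ± 0.14 and 2.10 ± 0.14 on the log2 scale (adjusted p = 2.65e-10, 1.81e-12 and 3.80e-12). The step between day 2 and day 4 was -0.67 ± 0.15 (adjusted p = 0.00098). Day 6 was 1.40-fold lower than day 2 (adjusted p = 0.00903, but 0.056 without day 6 replicate 2 and 0.0728 with scaling by library totals). This was the regulator with the fewest reads, 87 to 527 counts per library, which limits its precision.

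DDIT4 encodes REDD1, an inhibitor of the growth kinase complex mTORC1 that is induced by ATF4, p53 and hypoxia (chromosome 10, 72273920 to 72276036). It had 141.0, 119.4 and 126.2 CPM in the control, 73.0, 81.6 and 69.2 CPM at day 2, 78.0, 63.2 and 79.3 CPM at day 4, and 55.9, 69.1 and 63.5 CPM at day 6. All treated libraries lay below all controls, and the day 4 libraries overlapped both other exposures. DDIT4 fell by 0.79 ± 0.099, 0.81 ± 0.099 and 1.03 ± 0.099 at day 2, day 4 and day 6 on the log2 scale (adjusted p = 3.87e-07, 4.36e-07 and 5.78e-09). Day 4 and day 2 did not differ past the threshold (95% interval -0.225 to 0.185).

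A small difference between day 6 and day 2 of DDIT4 was just past the threshold (-0.25 ± 0.10, adjusted p = 0.0498). It was not past it by DESeq2 (0.06), with median-of-ratios scaling (0.0519), with library totals (-0.09, 0.509) or with a minimum of 1 CPM (0.0571). The same held without control replicate 3 (0.0565), day 2 replicate 1 (0.0774) or 2 (0.21), day 4 replicate 1 (0.057) or 3 (0.0572), and day 6 replicate 1 (0.241) or 3 (0.0853). DDIT4 has an annotated antisense partner, DDIT4-AS1, not analysed here.

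**Figure D2:**
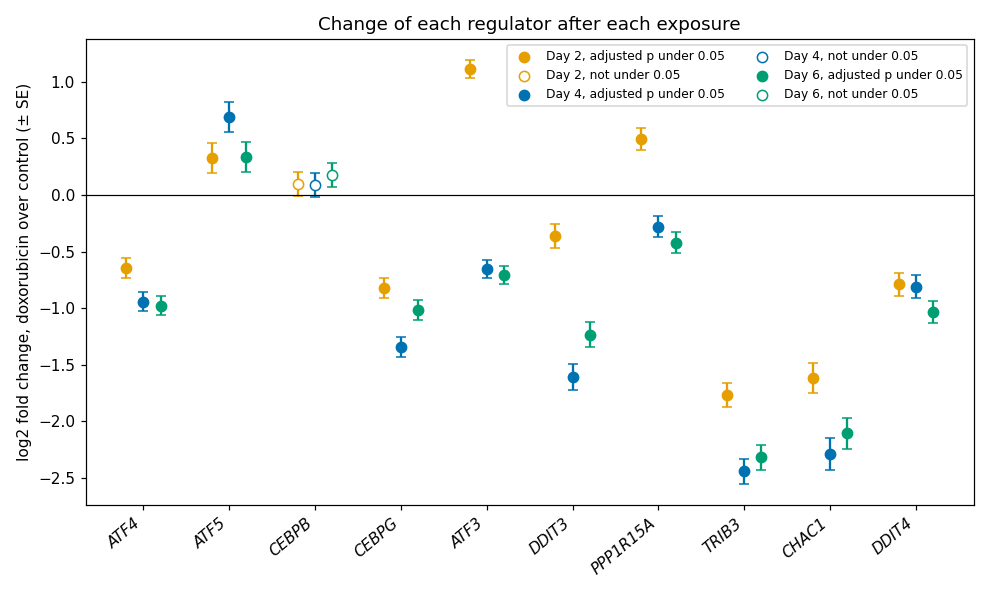
log2 fold change of each regulator, doxorubicin over control, with its SE (vertical axis), for the 3 exposures (colours). Filled points passed the adjusted threshold of 0.05 and open points did not. TRIB3 and CHAC1 lie lowest at every exposure, ATF3 and PPP1R15A lie above 0 at day 2 and below it later, and only CEBPB has open points.

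Between exposures, 8 of the 10 regulators differed at day 4 from day 2, 7 of them lower and ATF5 higher, where 18.5% of all genes were lower and 16.3% higher (34.8% in all). At day 6 against day 2, 7 were lower and 3 did not pass the test, beside 23.0% and 19.8% of all genes (42.8% in all), and with scaling by library totals 4 passed. Only CEBPG and DDIT3 differed between day 6 and day 4, both higher, where 3.05% of all genes were higher and 3.73% lower (6.78% in all). The mitochondrial share of counts also separated these groups, at 5.77% to 6.80% at day 6 and 8.01% to 8.34% at day 4, and its part in these calls was not tested. Leaving out 1 library changed that count to between 0 and 3. It was 0 without day 4 replicate 2 or 3 or without day 6 replicate 2 or 3, and 1 without control replicate 1, any 1 day 2 library, day 4 replicate 1 or day 6 replicate 1.

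Groups of libraries did not overlap for 9 regulators at day 2 against the control, 9 at day 4 and 8 at day 6, and over all genes the shares were 52.2%, 44.6% and 50.9%. Between exposures the groups did not overlap for 8 regulators at day 4 against day 2, 5 at day 6 against day 4 and 7 at day 6 against day 2, beside 45.9%, 27.6% and 52.8% of all genes.

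Per kilobase of annotated exon, ATF4 had the highest level of the 10 regulators in every group and ATF5 or CHAC1 the lowest. At day 6 the order, in CPM per kilobase (mean ± SD, n = 3), was ATF4 (123.7 ± 5.22), PPP1R15A (38.4 ± 0.316), DDIT4 (30.5 ± 3.21), CEBPB (28.9 ± 3.30), ATF3 (14.3 ± 0.441), DDIT3 (13.98 ± 0.560), CEBPG (13.4 ± 0.872), ATF5 (6.45 ± 0.727), TRIB3 (4.34 ± 0.164) and CHAC1 (2.96 ± 0.403). Here DDIT4 and CEBPB, and then ATF3, DDIT3 and CEBPG, were neighbours within 1 SD. In the control ATF4 stood at 243.7 ± 20.1 CPM per kilobase, followed by DDIT4 at 62.6 ± 5.36, PPP1R15A at 51.5 ± 7.14 and DDIT3 at 32.9 ± 4.82. CEBPG (27.1 ± 1.93), CEBPB (25.7 ± 2.64), ATF3 (23.4 ± 2.12) and TRIB3 (21.6 ± 3.14) came next, neighbours that lay within about 1 SD of each other. CHAC1 was at 12.7 ± 1.59 and ATF5 at 5.12 ± 0.807. TRIB3 and CHAC1 thus stood below ATF5 at day 6 and above it in the control. These levels rest on the union of annotated exons and not on the transcripts the cells use.

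Patterns were compared by the root mean square difference of log2 group means, each gene centred on its own mean over the 4 groups. TRIB3 and CHAC1 were the closest pair of regulators, at a distance of 0.0812 log2 units. ATF4 and DDIT4 followed at 0.0979, and ATF4 and CEBPG at 0.156. TRIB3 lay farther from ATF4, at 0.581: both fell at each exposure, TRIB3 by more. ATF3 was nearest to PPP1R15A, at 0.392, but PPP1R15A was nearer to CEBPB, at 0.37. The most distant pair was TRIB3 and ATF5, at 1.19.

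**Figure D3:**
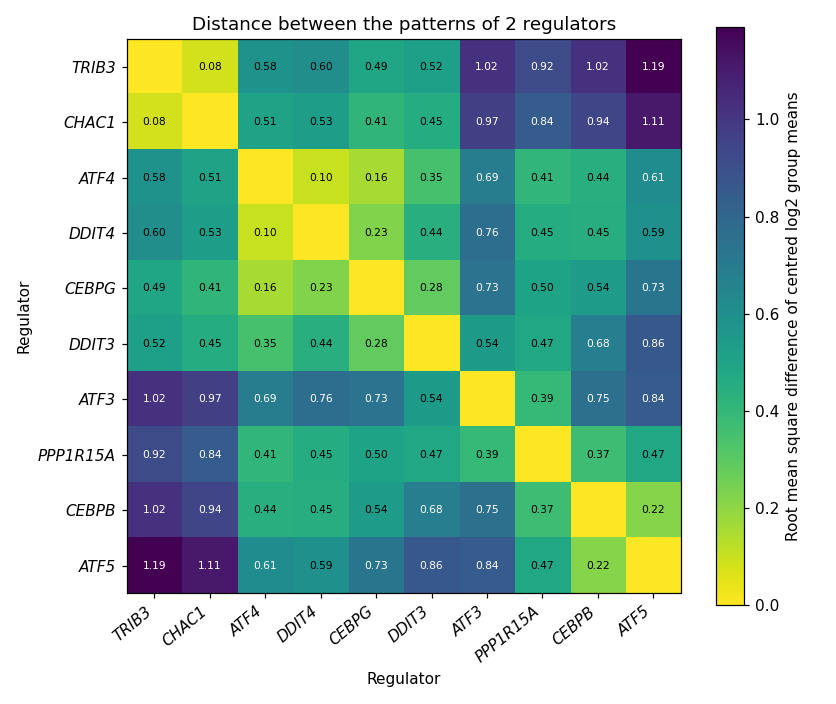
Distance between the patterns of each pair of regulators (rows and columns), as the root mean square difference of their centred log2 group means over 4 groups, with the value in each cell and as colour (yellow is 0). TRIB3 with CHAC1 and ATF4 with DDIT4 and CEBPG form the close pairs, and the row of ATF5 holds its lowest value with CEBPB (0.218) and its highest with TRIB3 (1.19).

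Group means of 6 regulators spanned at least 2-fold, and for these the nearest genes were sought among 9683 genes of at least 10 CPM in their highest group. The regulators themselves were left out of these candidates. CHAC1 and TRIB3 were both nearest to PSAT1, an enzyme gene of serine synthesis, and AKR1C3, an aldo-keto reductase gene (distances of 0.123 and 0.171 for CHAC1, and of 0.176 and 0.125 for TRIB3). The third gene for CHAC1 was ASNS, the asparagine synthetase gene, at 0.19, and that for TRIB3 was FOS at 0.177. ATF3 was nearest to CCDC81 (0.0803), the interferon-induced GBP1 (0.106) and the transcription factor gene KLF4 (0.108). KLF4 averaged 20.6, 51.5, 12.3 and 13.5 CPM in the control and at day 2, day 4 and day 6. DDIT3 was nearest to BCAM (0.097), PLPPR4 (0.0982) and DCN (0.102), DDIT4 to MC1R (0.0267), BRD8 (0.0317) and HEXIM1 (0.0324), and CEBPG to ADAMTS10 (0.0506), PLSCR4 (0.061) and FIGN (0.0632). With a minimum of 1 CPM, 9 of these 18 nearest genes were the same.

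Lists of related genes are read beside the shares of all tested genes given above (23.8% higher and 23.4% lower at day 2, 18.8% and 17.7% at day 4, and 22.0% and 21.7% at day 6). Of 22 genes for the eIF2 kinases, their relay and the eIF2 machinery, 1 rose and 5 fell at day 2, 3 rose and 7 fell at day 4, and 3 rose and 7 fell at day 6, with medians of -0.11, -0.06 and -0.04 on the log2 scale. The 22.7% of these genes that fell at day 2 was near the share of all genes, while the 4.55% that rose was below it. At day 4 and at day 6, 31.8% fell and 13.6% rose. EIF2AK4, the gene of the amino acid sensing kinase GCN2, rose by 0.54 ± 0.072 at day 2, 0.27 ± 0.072 at day 4 and 0.43 ± 0.072 at day 6. PPP1R15B, the constitutive counterpart of PPP1R15A, changed by -0.08 ± 0.093 at day 2 (adjusted p = 0.504) and fell by 0.72 ± 0.094 and 0.61 ± 0.094 at day 4 and day 6. EIF2S2, the eIF2 beta subunit gene, had -0.17 ± 0.087 at day 2 (adjusted p = 0.117) and fell by 0.58 ± 0.088 and 0.71 ± 0.088 later.

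Among 22 tested ATF4 target genes of amino acid supply, 2 rose and 15 fell at day 2, 18 fell at day 4, and 1 rose and 19 fell at day 6. Their medians were -0.57, -1.24 and -1.06. PSAT1 fell at all 3 exposures, with log2 fold changes of -1.33 ± 0.090, -2.30 ± 0.093 and -1.91 ± 0.091. The subunits of 1 amino acid exchanger, SLC7A5 and SLC3A2, changed by 0.10 ± 0.081 (edgeR, adjusted p = 0.303) and 0.28 ± 0.085 at day 2. They fell by 1.88 ± 0.085 and 1.37 ± 0.089 at day 4, so both were low at day 4 but not at day 2. Of 4 tested paralogs of the regulators, 2 fell at day 4 and at day 6. Those were PPP1R15B and TRIB1, a relative of TRIB3 that changed by -0.08 ± 0.11 at day 2 (adjusted p = 0.599) and fell by 1.07 ± 0.11 at day 4. CHAC2, the constitutive relative of CHAC1, had -0.45 ± 0.20 at day 2 (adjusted p = 0.0754). Of 27 other bZIP factors of the ATF and C/EBP families and their partners, 4 rose and 13 fell at day 2, 3 rose and 14 fell at day 4, and 3 rose and 15 fell at day 6, with medians of -0.28, -0.37 and -0.31. FOS had log2 fold changes of -2.05 ± 0.11, -2.65 ± 0.12 and -2.14 ± 0.11.

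**Figure D4:**
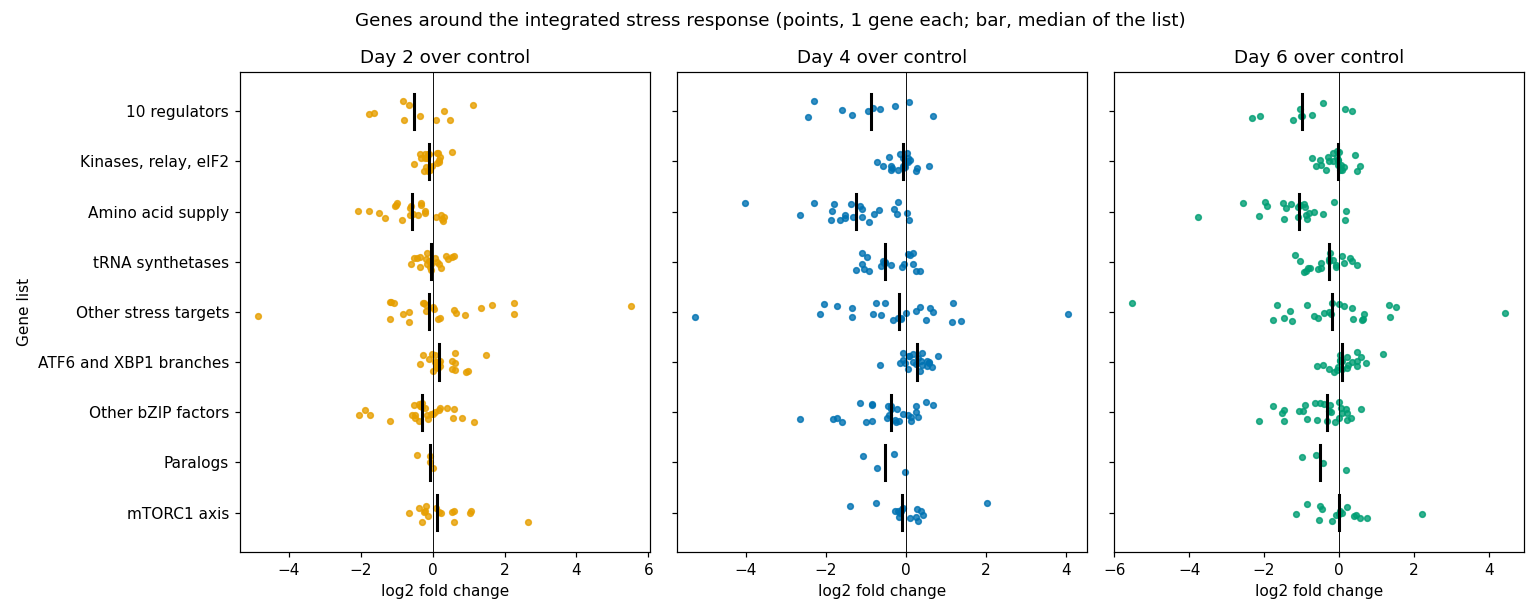
log2 fold change against the control after 2, 4 and 6 days (panels, horizontal axes) for the 10 regulators and for 8 lists of related genes (rows). Each point is 1 gene and each black bar is the median of its row. The regulators and the amino acid supply genes have the lowest medians at day 4 (-0.88 and -1.24) and day 6 (-0.998 and -1.06), while the medians of the eIF2 kinases and machinery are -0.06 and -0.04.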

How the data were processed

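The deposited table holds raw counts per gene ID. Per the submitters' processing notes, fastp 0.23.2, Trimmomatic 0.38, STAR 2.7.8, HTSeq 0.13.5 and GRCh38.p13 were used, with no role or order given, and the strand setting is not given in the sources used here. All per-sample columns were used. Symbols matched 60437 of 60607 IDs, and positions came from GENCODE 29 (GRCh38). Genes passing edgeR's filter (minimum count 10, minimum total 15) were scaled by TMM and fitted in edgeR 4.0.16 (R 4.3.3) by the robust quasi-likelihood test over all 12 libraries with group as the term, leaving 8 residual degrees of freedom. The SE was taken as the absolute log2 fold change over the root of F. The 10 regulators and the lists were chosen with earlier results of these data known. All regulators are named, with the 3 genes of smallest p in each list and, as nearest in pattern, the 3 genes of smallest distance. Annotated genes that overlap a regulator are given where they passed the filter. The code was tested on simulated data. Alternatives were median-of-ratios factors, library totals, DESeq2 1.42.0, no filter on low counts, a filter at 1 CPM (3 libraries or more), a replicate block, fits restricted to the groups compared, and omission of each library in turn. A fit without the 2 libraries of apart mitochondrial share was chosen after seeing the data. RefSeq promoter windows were searched by exact letters.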

Additional observations from a re-analysis of the deposited data

Results flagged for a closer look

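Results that differed between exposures by a direct test are given here as log2 fold changes (edgeR, adjusted p under 0.05). Each exposure shares the same controls. At day 4 against day 2, ATF4 changed by -0.296, ATF3 by -1.768, ATF5 by 0.362, DDIT3 by -1.242, TRIB3 by -0.671, CHAC1 by -0.668, PPP1R15A by -0.774 and CEBPG by -0.52. At day 6 against day 4, DDIT3 changed by 0.374 and CEBPG by 0.323. At day 6 against day 2, ATF4 changed by -0.333, ATF3 by -1.821, DDIT3 by -0.868, DDIT4 by -0.245, TRIB3 by -0.547, CHAC1 by -0.484 and PPP1R15A by -0.916. Some of these calls were not past the threshold under at least 1 alternative. They were ATF4 and ATF5 at day 4 against day 2, and DDIT3 and CEBPG at day 6 against day 4. At day 6 against day 2 they were ATF4, DDIT4 and CHAC1. ATF3 and PPP1R15A lay above the control at day 2 and below it at day 4 and day 6. With 3 libraries in each group, single libraries were not tested for standing apart.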

How the results depend on the processing

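Of 1390 values of single regulators under the alternatives, 1313 kept their direction and their side of the threshold, 55 were no longer past it, 4 were newly past it and 18 changed sign, and none of these 18 was past the threshold before or after. Where a call or sign changed, the cause was not tested. Genes called between day 6 and day 4 numbered 1174, against 1837 from the compared groups alone, 2027 without the 2 libraries of apart mitochondrial share and 572 to 1842 with 1 library left out. Regulators called there numbered 2, and 0 to 3 with 1 library left out. At day 6 against day 2, 7 regulators were called, and 4 with library totals, where ATF4 had an adjusted p of 0.0969 by edgeR. Library totals moved the median of all genes by over 0.1 at day 2 against the control (-0.136) and at day 6 against day 2 (0.162). Genes higher and lower were then 3203 and 5386 at day 2 (4122 and 4058 with TMM), 3842 and 2443 at day 4 against day 2 (2828 and 3203), 1006 and 350 at day 6 against day 4 (528 and 646), and 5265 and 2538 at day 6 against day 2 (3437 and 3977).

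The sign changes with library totals were CEBPB at day 2 against the control (-0.026), DDIT4 (0.068) and CEBPB (0.075) at day 4 against day 2, and ATF4 (0.035) and ATF3 (0.019) at day 6 against day 4. With 1 library left out, CEBPB ranged over -0.011 to 0.171 at day 4 against the control, -0.105 to 0.049 at day 4 against day 2, -0.014 to 0.185 at day 6 against day 4 and -0.026 to 0.142 at day 6 against day 2. DDIT4 ranged over -0.072 to 0.069 at day 4 against day 2, ATF4 over -0.069 to 0.026 at day 6 against day 4, and ATF5 over -0.05 to 0.098 at day 6 against day 2 (-0.028 without the 2 libraries of apart mitochondrial share). ATF5 at day 6 against day 4 passed the test without control replicate 2 (edgeR, adjusted p = 0.043).

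No pairing by replicate number was visible: deviations from group means of same-numbered libraries correlated at -0.171 to 0.0963 over 18 pairs, 0 of them over 0.1, against 5 of 36 pairs with different numbers. With deviations taken within groups of 3 libraries, this check cannot decide whether libraries were paired. With the replicate number as a block, 1 regulator was called between day 6 and day 4, and the calls of ATF5 at day 2 (edgeR, adjusted p = 0.0564) and day 6 (0.0553) against the control, DDIT3 at day 6 against day 4 (0.0745) and DDIT4 at day 6 against day 2 (0.0752) were not past the threshold. It changed no other call of a regulator.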

Other observations

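Other arms of the stress network are given as counts, and their lists share a few genes. Of all tested genes, 23.8% rose and 23.4% fell at day 2, 18.8% and 17.7% at day 4, and 22.0% and 21.7% at day 6. Of 20 cytosolic tRNA synthetase genes, 5 rose and 6 fell at day 2, 2 rose and 12 fell at day 4, and 3 rose and 12 fell at day 6 (medians -0.06, -0.52 and -0.26), so the day 2 counts were near the shares of all genes. WARS1 had log2 fold changes of -0.16 ± 0.078 (edgeR, adjusted p = 0.0927), -1.04 ± 0.080 and -1.18 ± 0.080. YARS1 had -0.35, -1.10 and -0.95, and GARS1 -0.43, -1.08 and -1.04. Of 22 genes of the ATF6 and XBP1 branches, which enlarge the folding capacity of the endoplasmic reticulum, 10 rose and 2 fell at day 2, 10 rose and 1 fell at day 4, and 9 rose and 3 fell at day 6 (medians 0.17, 0.28 and 0.09). ERN1, the sensor gene of the XBP1 branch, had 1.49 ± 0.11, 0.80 ± 0.11 and 1.18 ± 0.11, the chaperone gene CALR 0.99, 0.66 and 0.47, and XBP1 -0.27, -0.64 and -0.58.

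Of 24 other stress targets of ATF4 and CHOP, 8 rose and 10 fell at day 2, 9 rose and 11 fell at day 4, and 9 rose and 12 fell at day 6. GDF15, a secreted stress cytokine gene also induced by p53, had log2 fold changes of 5.51 ± 0.16, 4.05 ± 0.16 and 4.43 ± 0.16. The death receptor gene TNFRSF10B had 1.65, 1.39 and 1.34, while INHBE, an inhibin subunit gene, had -4.84 ± 0.30, -5.26 ± 0.31 and -5.52 ± 0.31. INHBE averaged 14.1 CPM in the control and 0.460, 0.366 and 0.305 CPM after 2, 4 and 6 days. The size of its fold changes thus rests on few reads. Among 16 genes of mTORC1 and its regulators around DDIT4, 7 rose and 6 fell at day 2, 5 rose and 3 fell at day 4, and 5 rose and 5 fell at day 6. The 18.8% of these that fell at day 4 was near the share of all genes, while the 31.2% that rose was above it. SESN1, a p53 target that restrains mTORC1, had 2.65 ± 0.12, 2.02 ± 0.12 and 2.23 ± 0.12. DEPTOR, the gene of an mTOR-binding inhibitor, had 1.08 ± 0.13 at day 2 and -1.40 ± 0.15 and -1.14 ± 0.14 later. TXNIP, the gene of a thioredoxin-binding protein, had -0.22, 0.27 and 0.75.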
